A study of Mus musculus with 8 samples.

Results

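The genes described here are 9 cathepsins (Ctsa, Ctsb, Ctsc, Ctsd, Ctse, Ctsh, Ctsl, Ctss and Ctsz) and Cst3, the gene of the cathepsin inhibitor cystatin C. They were taken as the lysosomal and endosomal cathepsins, without the granule protease gene Ctsg, together with this inhibitor. The rule uses no measured value, but the genes were proposed with earlier results of these data known. All 10 genes had a probe set that the array annotation assigns to a single gene, each had exactly 1 such probe set, and all 10 were among the 13356 genes bright enough to be tested. On every array each of the 10 lay above the middle of that array's probe sets, with percentile ranks between 53.6 for Ctsl and 99.8 for Cst3.

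Dendritic cell progenitors were sorted by flow cytometry from bone marrow, and their RNA was amplified and hybridised to Affymetrix arrays. The groups were pre-CD8 DCs, progenitors named for the CD8+ dendritic cells (DCs) (2 arrays), Zeb2low CDPs (3 arrays) and Zeb2hi CDPs (3 arrays), where CDP stands for common DC progenitor. All 3 groups, with no wild type among them, came from mice heterozygous for a Zeb2-GFP fusion reporter, in which one copy of the gene of the transcription factor Zeb2 carries a fluorescent tag. The labels give no strain, age, sort markers or pooling and do not say that the arrays of a group came from separate mice, so the p-values measure the spread between these arrays, which may be technical. Fewer cells of a kind in a sorted sample and less RNA per cell cannot be told apart in these data.

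Cathepsins are proteases of endosomes and lysosomes that are made as inactive precursors and work at acid pH. In antigen-presenting cells they cut internalised proteins into peptides, and Ctss and Ctsl degrade the invariant chain that blocks the peptide groove of MHC class II molecules. Cystatin C is a secreted protein that binds cysteine cathepsins tightly, and its gene is known for strong expression in CD8+ DCs.

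As a check of the sort, Zeb2 signal averaged 7.68 ± 0.18 in Zeb2low CDPs against 9.27 ± 0.20 in Zeb2hi CDPs (log2, SD, n = 3 each), a difference of -1.59 ± 0.18 (SE, adjusted p = 0.00196 by limma), and pre-CD8 DCs averaged 6.73 ± 0.28 (n = 2). Correlations of all genes between arrays were 0.937 for the pre-CD8 DC pair, 0.939 to 0.975 among Zeb2low CDPs and 0.971 to 0.989 among Zeb2hi CDPs. Each pre-CD8 DC array was closer to a Zeb2low array than to its partner: array 1 to Zeb2low array 2 (0.958), and array 2 to all 3 Zeb2low arrays (0.942 to 0.966). The summed linear signal of 10 neutrophil marker genes was 54600 and 29200 in pre-CD8 DCs, 23300 to 47400 in Zeb2low CDPs and 10800 to 20800 in Zeb2hi CDPs, highest on pre-CD8 DC array 1 and Zeb2low array 2. The same sum for 8 of 10 listed monocyte and macrophage markers was 9140 and 3940 in pre-CD8 DCs, 3090 to 5350 in Zeb2low CDPs and 4530 to 5620 in Zeb2hi CDPs. For 8 markers of cDC1 and pre-cDC it was 5670 and 5760 in pre-CD8 DCs, 3160 to 3430 in Zeb2low CDPs and 2120 to 2740 in Zeb2hi CDPs, and for 5 of 6 plasmacytoid DC markers it was 987 and 1180 in pre-CD8 DCs, 760 to 1340 in Zeb2low CDPs and 1190 to 1480 in Zeb2hi CDPs, although 3 of these 5 rose and none fell in Zeb2low CDPs against Zeb2hi CDPs (median log2 difference 1.02). T and NK cell markers summed to 360 and 303 in pre-CD8 DCs, 360 to 393 in Zeb2low CDPs and 127 to 138 in Zeb2hi CDPs, with 2 of 3 tested genes higher in either of the first groups than in Zeb2hi CDPs. Basophil and mast cell markers summed to 590 and 402, 238 to 717 and 178 to 265 in the same groups, with 2 of 4 tested genes higher in Zeb2low CDPs and 1 in pre-CD8 DCs, both against Zeb2hi CDPs. Of the 8 monocyte and macrophage genes, 1 was higher and 1 lower in Zeb2low CDPs against Zeb2hi CDPs. In pre-CD8 DCs against Zeb2hi CDPs, 1 was higher and 2 were lower. Of these 8, Lyz2 was the brightest on pre-CD8 DC array 1 (12.56). F13a1 was 7.91 there against 10.48 to 10.61 in Zeb2hi CDPs. Over all genes, 4.5% were called higher and 10.3% lower in Zeb2low CDPs against Zeb2hi CDPs. For pre-CD8 DCs against Zeb2hi CDPs these shares were 6.51% and 11.1%. B cell and erythroid sums were at or below 526 on every array. The part of the cells behind these marker differences in the results below was not tested.

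The cathepsins did not move as a block. In Zeb2low CDPs against Zeb2hi CDPs, the carboxypeptidase genes Ctsa and Ctsz and the endopeptidase gene Ctsb fell between 1.86-fold and 2.04-fold and the aspartic protease gene Ctse rose 2.64-fold, so 4 of the 10 genes passed the test (limma, Benjamini-Hochberg adjusted p under 0.05 over all genes), 1 higher and 3 lower. Over all 13356 genes 14.8% passed, 4.5% higher and 10.3% lower. The median log2 difference was -0.39 over the 10 genes and 0.03 over all genes. Arrays of the groups did not overlap for Ctse and Cst3 on the higher side, where 20.2% of all genes did the same, or for Ctsa, Ctsb, Ctss and Ctsz on the lower side, where 21.5% did. Without pre-CD8 DC array 1 and Zeb2low array 2, which carried the highest neutrophil marker sums, 5 genes passed, all lower, and Ctse was not among them. The count was 1 without Zeb2hi array 2 or 3 and 2 without Zeb2low array 2. Of the 10 differences 3 were positive, as were 52.2% over all genes.

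In pre-CD8 DCs against Zeb2hi CDPs, Ctse, Cst3, Ctsc and Ctsh rose between 1.53-fold and 2.69-fold while Ctsa and Ctsz fell, so 6 of 10 genes passed, 4 higher and 2 lower, with 17.6% of all genes passing, 6.51% higher and 11.1% lower. All 6 had groups that did not overlap, which held on the higher side for 21.4% and on the lower side for 27.1% of all genes. The median log2 difference was 0.11 over the 10 genes and -0.02 over all genes, and 5 of the 10 differences were positive, beside 48.5% of all. These calls were close to the threshold: the count was 2 without the pair of arrays high in neutrophil markers, 2 with the replicate number as a block, 3 with each array centred on its median, 0 without Zeb2hi array 2, 1 without pre-CD8 DC array 1 or Zeb2hi array 3, 3 without pre-CD8 DC array 2 and 2 without Zeb2low array 2.

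In pre-CD8 DCs against Zeb2low CDPs, 0 of 10 genes passed limma's test, where 0.554% of all genes did, 0.337% higher and 0.217% lower. At an unadjusted p under 0.05, 13.2% of all genes differed. Of the 10 genes, Ctsb, Ctsc, Ctsh, Ctss and Ctsz did so, all higher in pre-CD8 DCs. Of the 10 differences, 8 were positive, where 46.3% over all genes were, with a median of 0.55 against -0.03 over all genes. Both pre-CD8 DC arrays lay above all 3 Zeb2low arrays for Ctsb, Ctsc, Ctsh, Ctss, Ctsz and Cst3, which was so for 12.4% of all genes, and for none of the 10 did they lie below (15.4% of all genes). Without pre-CD8 DC array 2, Ctss passed (log2 difference 1.5, adjusted p = 0.0214). In this and every other fit without a pre-CD8 DC array, the single array left in that group was assumed to vary like the other groups.

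**Figure D1:**
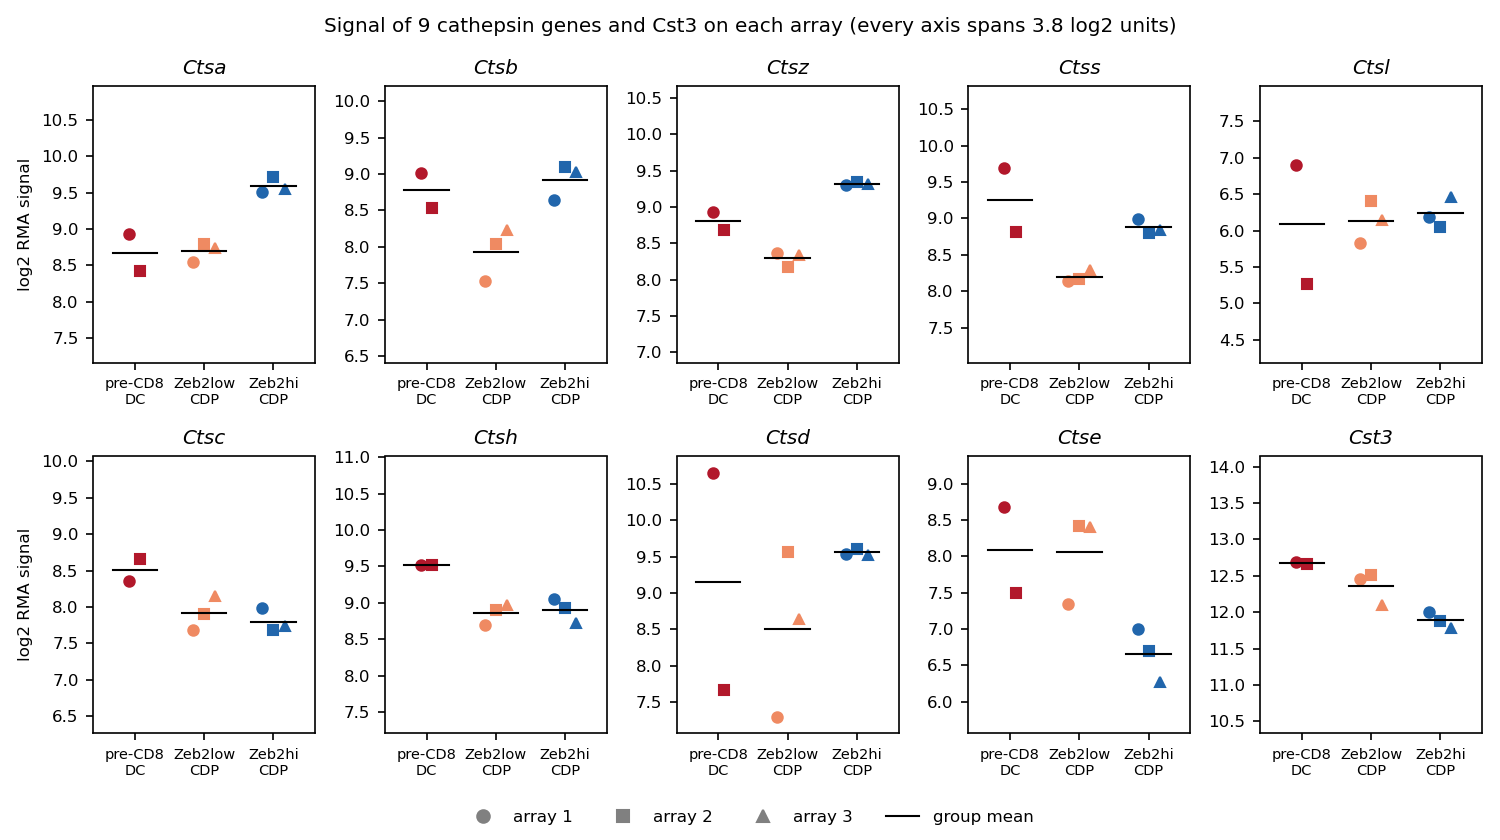
Log2 signal of the 9 cathepsin genes and Cst3 on each of the 8 arrays (vertical axis, log2 RMA signal, 3.8 units in every panel), with pre-CD8 DCs left, Zeb2low CDPs in the middle and Zeb2hi CDPs right; marker shapes give the array number and lines the group means. The Ctsz arrays sit in 3 separate bands, lowest in Zeb2low CDPs, whereas Ctsd spreads over 2.99 units between the pre-CD8 DC arrays and over 0.09 units among the Zeb2hi CDP arrays.

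Ctsz encodes cathepsin Z, a cysteine carboxypeptidase. Its log2 signal was 8.93 and 8.69 on the pre-CD8 DC arrays, 8.37, 8.18 and 8.34 on the Zeb2low CDP arrays, and 9.31, 9.35 and 9.31 on the Zeb2hi CDP arrays. The groups did not overlap, Zeb2low CDPs were lowest and Zeb2hi CDPs highest, and the Zeb2hi range of 0.04 was smaller than that of all but 1.27% of genes. In Zeb2low CDPs against Zeb2hi CDPs the gene fell by 1.03 ± 0.14 (log2, SE, adjusted p = 0.00329), 2.04-fold lower. It passed in all 17 alternative settings and subsets of arrays set out for this comparison, with adjusted p from 0.000267 to 0.0238. In pre-CD8 DCs against Zeb2hi CDPs it fell by 0.52 ± 0.15 (adjusted p = 0.0465), but this call held in 3 of 16 such alternatives and was lost with the replicate block (0.102) and without every array except Zeb2low array 1 (0.0641 to 0.19). Against Zeb2low CDPs, pre-CD8 DCs were 1.43-fold higher with no call (log2 difference 0.51 ± 0.15, adjusted p = 0.202).

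Ctsa encodes cathepsin A, a serine carboxypeptidase that also protects lysosomal beta-galactosidase and neuraminidase from breakdown. Its log2 signal was 8.93 and 8.42 in pre-CD8 DCs, 8.55, 8.80 and 8.74 in Zeb2low CDPs, and 9.51, 9.71 and 9.55 in Zeb2hi CDPs. Pre-CD8 DCs and Zeb2low CDPs lay below every Zeb2hi array and overlapped each other. The gene fell by 0.90 ± 0.17 in Zeb2low CDPs (1.86-fold lower, adjusted p = 0.0123) and by 0.91 ± 0.19 in pre-CD8 DCs (1.88-fold lower, adjusted p = 0.0132), both against Zeb2hi CDPs, and pre-CD8 DCs differed from Zeb2low CDPs by -0.02 ± 0.19 (adjusted p = 0.975). The first call was lost without Zeb2hi array 2 (0.0628) or 3 (0.0523), and the second without pre-CD8 DC array 2 (0.0616) or Zeb2hi array 2 (0.0535). Both comparisons with Zeb2hi CDPs share those 3 arrays.

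The 250 bases before the annotated starts of the carboxypeptidase genes, which fell in the same direction, are shown to give their promoter context (RefSeq, GRCm38.p6, strand of the gene, 5′ to 3′). Capitals mark matches on either strand to CACGTG, the core of the sites of the lysosomal MiT/TFE factors, to CACCTG, which reads CAGGTG on the other strand and is an E-box form read by Zeb2 and by E proteins, or to GAGGAA, which reads TTCCTC on the other strand and is the core of PU.1 sites. No letters of these 3 motifs overlap in the windows printed here.
Ctsa (chr2:164832622-164832871, + strand): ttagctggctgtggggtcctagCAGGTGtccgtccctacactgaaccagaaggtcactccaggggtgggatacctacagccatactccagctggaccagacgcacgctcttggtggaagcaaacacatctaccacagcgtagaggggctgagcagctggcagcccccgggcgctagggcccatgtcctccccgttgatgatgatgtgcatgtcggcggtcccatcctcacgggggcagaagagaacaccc
Ctsz (chr2:174439040-174439289, - strand): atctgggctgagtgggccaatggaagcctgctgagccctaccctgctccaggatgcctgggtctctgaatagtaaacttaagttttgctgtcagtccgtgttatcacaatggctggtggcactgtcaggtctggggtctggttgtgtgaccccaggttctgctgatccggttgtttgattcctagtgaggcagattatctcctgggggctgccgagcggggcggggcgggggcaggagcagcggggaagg
The Ctsa window holds 1 CAGGTG, 228 bases before the start. A window before a downstream Ctsa start (chr2:164833523-164833772) holds 1 match to CACCTG and another to CACGTG. Ctsz holds none of the 3 motifs. Among 32851 windows of this length, CACGTG was found in 6.02%, CACCTG in 17.2% and GAGGAA in 23.3%. Windows were at hand for 7 of the 10 genes, all but Ctsb, Ctse and Ctsh, and of these 7 Ctsa alone held CACCTG, Ctsa, Ctsd and Ctsl held CACGTG, and Cst3, Ctss and Ctsc held GAGGAA. Ctsa was counted over both of its windows, whereas the shares above are per window. Its CACGTG lies only in the window before the downstream start, 12 bases before that start. A match is a string of letters and was not tested for binding.

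Ctsb, Ctss and Ctsl are cysteine endopeptidases that cut proteins inside the chain, Ctsb also trimming dipeptides from the C-terminus. Ctsb had log2 signals of 9.01 and 8.54 in pre-CD8 DCs, 7.53, 8.04 and 8.23 in Zeb2low CDPs, and 8.64, 9.10 and 9.04 in Zeb2hi CDPs. The Zeb2low arrays were below all others, whereas pre-CD8 DCs and Zeb2hi CDPs overlapped. In Zeb2low CDPs against Zeb2hi CDPs Ctsb fell by 0.99 ± 0.23 (1.99-fold lower, adjusted p = 0.0238), a call lost without Zeb2low array 2 (0.0525), Zeb2hi array 2 (0.0986) or Zeb2hi array 3 (0.0935). Pre-CD8 DCs differed by 0.84 ± 0.26 from Zeb2low CDPs (adjusted p = 0.217) and by -0.15 ± 0.26 from Zeb2hi CDPs (adjusted p = 0.734).

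Ctss, the endopeptidase that completes invariant chain removal in DCs, had log2 signals of 9.70 and 8.81 in pre-CD8 DCs, 8.14, 8.17 and 8.29 in Zeb2low CDPs, and 9.0, 8.80 and 8.84 in Zeb2hi CDPs. As for Ctsb, the 3 Zeb2low arrays were the lowest of the 8. The difference of -0.68 ± 0.22 in Zeb2low CDPs against Zeb2hi CDPs (1.60-fold lower) had an adjusted p of 0.0685, and it passed without pre-CD8 DC array 1 (0.0145) or 2 (0.0146), which do not enter this difference but do enter the estimate of the spread. Pre-CD8 DCs were higher than Zeb2low CDPs by 1.05 ± 0.24 (2.07-fold, adjusted p = 0.115). Against Zeb2hi CDPs they differed by 0.38 ± 0.24 (adjusted p = 0.329), by 0.82 without pre-CD8 DC array 2 (adjusted p = 0.0263) and by -0.07 without pre-CD8 DC array 1.

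Ctsl had log2 signals of 6.90 and 5.27 in pre-CD8 DCs, 5.82, 6.41 and 6.14 in Zeb2low CDPs, and 6.19, 6.05 and 6.47 in Zeb2hi CDPs. All groups overlapped, and the pre-CD8 DC arrays were the highest and the lowest of the 8. Differences were -0.11 ± 0.37 in Zeb2low CDPs against Zeb2hi CDPs, -0.04 ± 0.41 between pre-CD8 DCs and Zeb2low CDPs and -0.15 ± 0.41 in pre-CD8 DCs against Zeb2hi CDPs, with adjusted p of 0.846, 0.976 and 0.838.

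**Figure D2:**
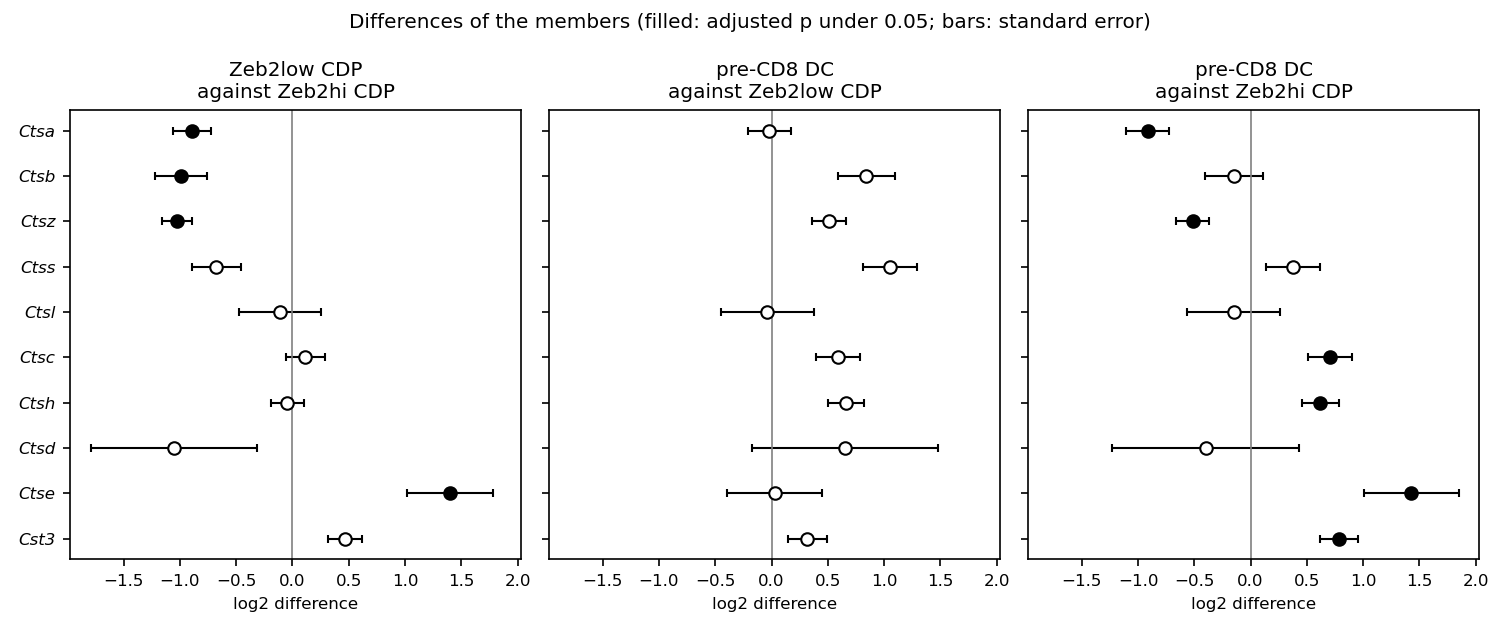
Log2 differences (horizontal axis) with standard errors for the 10 genes in the 3 comparisons, each group named first minus the group named after it. Filled points passed the test: 1 to the right of 0 and 3 to the left for Zeb2low CDPs against Zeb2hi CDPs, none in the middle panel, and 4 to the right and 2 to the left for pre-CD8 DCs against Zeb2hi CDPs.

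Ctsc and Ctsh are cysteine exopeptidases that remove residues from the N-terminus. Ctsc (dipeptidyl peptidase I), which activates the granule serine proteases, had log2 signals of 8.35 and 8.66 in pre-CD8 DCs, 7.68, 7.91 and 8.16 in Zeb2low CDPs, and 7.98, 7.68 and 7.74 in Zeb2hi CDPs. Both pre-CD8 DC arrays were above the other 6, which overlapped. Ctsc rose in pre-CD8 DCs against Zeb2hi CDPs by 0.70 ± 0.19 (1.63-fold, adjusted p = 0.0382). This call was lost with the replicate block (0.0778), after centring (0.0531) and without pre-CD8 DC array 1 (0.0625) or 2 (0.167), Zeb2low array 2 (0.0573), or Zeb2hi array 2 (0.122) or 3 (0.114). The differences were 0.59 ± 0.19 in pre-CD8 DCs against Zeb2low CDPs (adjusted p = 0.25) and 0.11 ± 0.17 in Zeb2low CDPs against Zeb2hi CDPs (adjusted p = 0.662).

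Its promoter window is shown because it holds GAGGAA on the other strand. Of the 7 genes with a window, Ctsc, Cst3 and Ctss hold this motif, as do 23.3% of all windows. Against Zeb2hi CDPs, Ctsc and Cst3 rose in pre-CD8 DCs and Ctss had no call. Ctse and Ctsh, which also rose there, had no window. Ctsc holds 2, in capitals, 196 and 149 bases before the start.
Ctsc (chr7:88277835-88278084, + strand): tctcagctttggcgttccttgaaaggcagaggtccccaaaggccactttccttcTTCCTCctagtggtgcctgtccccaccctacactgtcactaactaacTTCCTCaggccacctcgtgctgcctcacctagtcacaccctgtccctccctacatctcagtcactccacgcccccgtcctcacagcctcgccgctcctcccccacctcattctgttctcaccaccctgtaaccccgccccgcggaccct

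Among the granule proteases that Ctsc activates, 3 of 5 listed genes were tested. Cathepsin G (Ctsg) averaged 8.93 ± 0.90 in pre-CD8 DCs, 7.88 ± 0.70 in Zeb2low CDPs and 11.48 ± 0.15 in Zeb2hi CDPs. It fell 12.2-fold in Zeb2low CDPs (log2 difference -3.61 ± 0.39, adjusted p = 0.00181) and 5.85-fold in pre-CD8 DCs (-2.55 ± 0.44, adjusted p = 0.00609), both against Zeb2hi CDPs. Proteinase 3 (Prtn3) fell 4.71-fold in Zeb2low CDPs (adjusted p = 0.00579) and 3.34-fold in pre-CD8 DCs (adjusted p = 0.0165), the second call lost when blocked by replicate number (0.0526) and without pre-CD8 DC array 2 (0.0889) or Zeb2hi array 2 (0.0587) or 3 (0.0588). The third, neutrophil elastase (Elane), differed by -1.06 in Zeb2low CDPs against Zeb2hi CDPs with no call (adjusted p = 0.239). Its Zeb2low arrays were at 7.12, 9.07 and 9.86. The pre-CD8 DC arrays, at 10.31 and 9.46, lay on both sides of the Zeb2hi arrays (9.63 to 9.89). Over all genes 10.3% fell in Zeb2low CDPs and 11.1% in pre-CD8 DCs, both against Zeb2hi CDPs.

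Ctsh, an aminopeptidase with some endopeptidase activity, had log2 signals of 9.52 and 9.52 in pre-CD8 DCs, 8.70, 8.90 and 8.97 in Zeb2low CDPs, and 9.05, 8.93 and 8.72 in Zeb2hi CDPs. The pre-CD8 DC arrays lay above the other 6, and the CDP groups overlapped. Ctsh rose in pre-CD8 DCs against Zeb2hi CDPs by 0.62 ± 0.16 (1.53-fold, adjusted p = 0.0326), a call lost with the replicate block (0.0945), after centring (0.0506), with only those groups fitted (0.0524) and without pre-CD8 DC array 1 (0.108) or 2 (0.0922), Zeb2low array 2 (0.051), or Zeb2hi array 2 (0.0891) or 3 (0.114). Its difference of 0.66 ± 0.16 against Zeb2low CDPs was about as large, with an adjusted p of 0.137. Between the CDP groups it differed by -0.05 ± 0.15 (adjusted p = 0.845).

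Ctsd and Ctse encode the aspartic cathepsins, Ctsd the general lysosomal endopeptidase and Ctse an endosomal relative found in immune and epithelial cells. Ctse had log2 signals of 8.67 and 7.50 in pre-CD8 DCs, 7.35, 8.42 and 8.40 in Zeb2low CDPs, and 7.0, 6.70 and 6.27 in Zeb2hi CDPs. Every Zeb2hi array was below the other 5, and pre-CD8 DCs and Zeb2low CDPs overlapped. Ctse rose by 1.40 ± 0.38 in Zeb2low CDPs (2.64-fold, adjusted p = 0.0405) and by 1.43 ± 0.42 in pre-CD8 DCs (2.69-fold, adjusted p = 0.0493), both against Zeb2hi CDPs. With the replicate block the adjusted p values were 0.0868 and 0.126. The first call was lost without Zeb2low array 2 (0.112) or 3 (0.117) or Zeb2hi array 2 (0.118) or 3 (0.145), without the filter on low signal (0.0519) or after centring (0.0628), and the second without the filter (0.065), after centring (0.071), and without any 1 array but pre-CD8 DC array 2 and Zeb2low array 1, down to a difference of 0.84 (adjusted p = 0.281) without pre-CD8 DC array 1.

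Ctsd had log2 signals of 10.65 and 7.67 in pre-CD8 DCs, 7.30, 9.57 and 8.64 in Zeb2low CDPs, and 9.54, 9.61 and 9.52 in Zeb2hi CDPs. The Zeb2hi arrays lay within 0.09 of each other, while the range was 2.99 between the pre-CD8 DC arrays, larger than for 99.6% of genes, and 2.26 among the Zeb2low arrays, larger than for 99.3%. All groups overlapped, and no comparison passed (log2 differences -1.05 ± 0.74 in Zeb2low CDPs against Zeb2hi CDPs, 0.65 ± 0.83 in pre-CD8 DCs against Zeb2low CDPs and -0.40 ± 0.83 in pre-CD8 DCs against Zeb2hi CDPs, adjusted p = 0.343, 0.77 and 0.783). Without pre-CD8 DC array 1 and Zeb2low array 2, the Ctsd differences were -1.58 in Zeb2low CDPs and -1.89 in pre-CD8 DCs, both against Zeb2hi CDPs. These arrays held the highest Ctsd signal of each of their groups, so lower means follow from leaving them out, and the single pre-CD8 DC array left was assumed to vary like the other groups.

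Over the 5 pre-CD8 DC and Zeb2low CDP arrays, Ctsd, Ctse and the neutrophil marker sum ran in the same order, highest on pre-CD8 DC array 1, then Zeb2low arrays 2 and 3, pre-CD8 DC array 2 and Zeb2low array 1. This order was not particular to them. The listed genes Sort1, Lipa, Galc and Ctsw had it too, and the share of all genes with it was not counted. Over the Zeb2hi arrays Ctsd was flat while the neutrophil sum ran from 10800 to 20800. With the mean log2 signal of the 10 neutrophil markers as a covariate, the Ctse difference between Zeb2low CDPs and Zeb2hi CDPs was 0.56 (adjusted p = 0.283) and that between pre-CD8 DCs and Zeb2hi CDPs was 0.48 (adjusted p = 0.469). Ctsz, Ctsa and Ctsb passed between Zeb2low CDPs and Zeb2hi CDPs (differences -1.06, -1.19 and -1.31), and Ctsd came to pass there (-2.75, adjusted p = 0.0331). The covariate was lower on every Zeb2hi array (8.25 to 10.13) than on any other array (10.14 to 12.21). A fit with it therefore cannot separate these markers from the groups, and neither lost nor kept calls decide their part. The loss was not particular to Ctse. In pre-CD8 DCs against Zeb2hi CDPs, 0 of the 10 genes passed as higher with this covariate. Over all genes 328 passed as higher with it and 869 without. Cst3, Ctsc and Ctsh thus lost their calls there too. Of Ctsa and Ctsz, lower there without the covariate, 1 still passed. Of the 10 neutrophil markers, 3 rose in Zeb2low CDPs and 4 in pre-CD8 DCs, both against Zeb2hi CDPs, and none fell. Over all genes 4.5% and 6.51% rose in these comparisons. The part of the cells carrying these markers in the Ctsd and Ctse values was not tested.

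**Figure D3:**
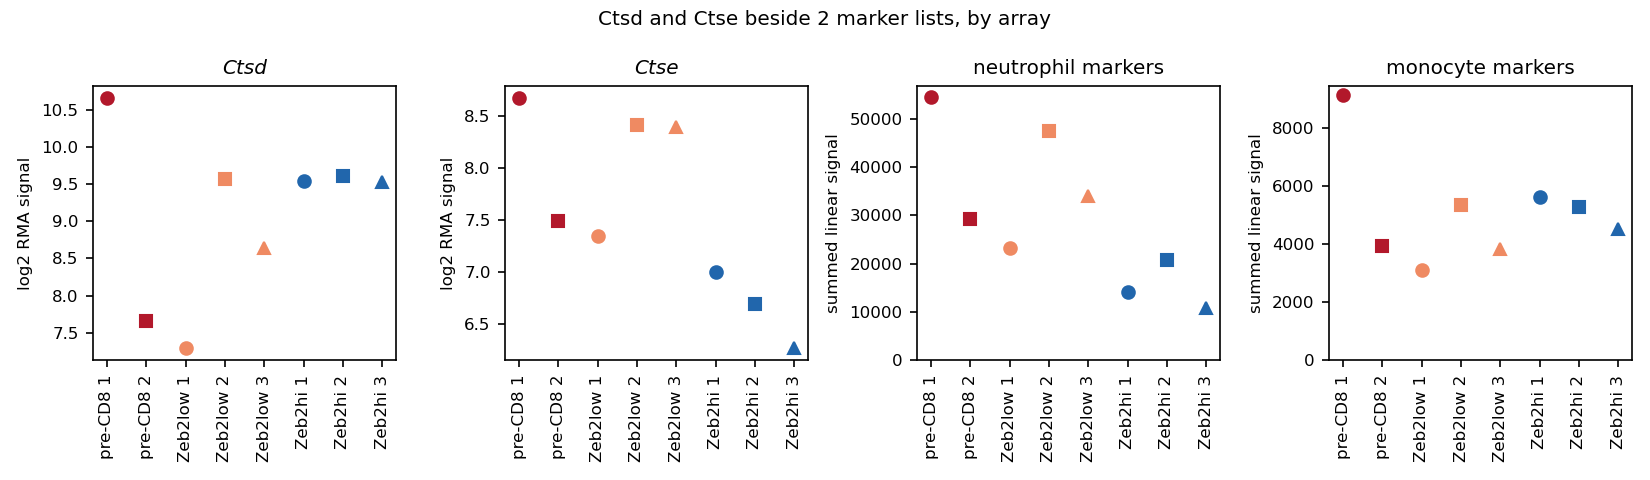
Log2 signal of Ctsd and of Ctse on each array (left panels) beside the summed linear signal of 10 neutrophil and of 8 monocyte and macrophage marker genes (right panels), with pre-CD8 DCs in red, Zeb2low CDPs in orange and Zeb2hi CDPs in blue. Ctsd, Ctse and both sums are highest on pre-CD8 DC array 1, and the Zeb2hi arrays hold the lowest Ctse signals, 6.27 to 7.0.

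The Ctsd promoter window is shown because it was the only window of these genes with 2 copies of CACGTG, in capitals, 245 and 98 bases before the start.
Ctsd (chr7:142387828-142388077, - strand): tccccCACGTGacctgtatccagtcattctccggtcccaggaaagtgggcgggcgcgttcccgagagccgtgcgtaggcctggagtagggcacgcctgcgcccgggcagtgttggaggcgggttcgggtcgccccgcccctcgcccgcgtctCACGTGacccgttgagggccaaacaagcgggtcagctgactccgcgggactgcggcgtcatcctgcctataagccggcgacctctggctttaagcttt
Of the MiT/TFE factors, which bind this core, 4 of 4 were tested. Tfeb, the family member best known for driving lysosomal genes, rose in Zeb2low CDPs by 0.57 ± 0.15 (adjusted p = 0.0395) and in pre-CD8 DCs by 0.91 ± 0.17 (adjusted p = 0.00889), both against Zeb2hi CDPs. The first of these passed in 3 of the 8 fits without 1 array and had an adjusted p of 0.0811 with the replicate block, and the second was lost without pre-CD8 DC array 1 (0.056). Tfec, the family member restricted to myeloid cells, fell 6.02-fold in Zeb2low CDPs (-2.59 ± 0.46, adjusted p = 0.00999) and 5.38-fold in pre-CD8 DCs (-2.43 ± 0.52, adjusted p = 0.0146), again against Zeb2hi CDPs, with the second lost without pre-CD8 DC array 2 (0.077).

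Cst3, encoding cystatin C, had log2 signals of 12.70 and 12.66 in pre-CD8 DCs, 12.45, 12.52 and 12.10 in Zeb2low CDPs, and 12.00, 11.89 and 11.78 in Zeb2hi CDPs. The groups formed 3 steps without overlap, highest in pre-CD8 DCs. Cst3 rose in pre-CD8 DCs against Zeb2hi CDPs by 0.79 ± 0.17 (1.73-fold, adjusted p = 0.0159), a call that held in 13 of 16 alternatives and was lost without pre-CD8 DC array 1 (0.0705) or Zeb2hi array 2 (0.0564) or 3 (0.0621). The neutrophil covariate, which is not among these 16, also ended this call. The single steps did not pass. Zeb2low CDPs differed from Zeb2hi CDPs by 0.47 ± 0.15 (adjusted p = 0.073). Pre-CD8 DCs differed from Zeb2low CDPs by 0.32 ± 0.17 (adjusted p = 0.456). The Cst3 window holds 1 GAGGAA, in capitals, 230 bases before the start.
Cst3 (chr2:148875513-148875762, - strand): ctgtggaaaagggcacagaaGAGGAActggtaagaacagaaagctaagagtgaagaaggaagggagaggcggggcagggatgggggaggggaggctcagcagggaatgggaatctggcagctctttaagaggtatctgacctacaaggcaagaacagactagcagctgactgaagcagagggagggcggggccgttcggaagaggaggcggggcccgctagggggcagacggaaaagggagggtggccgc

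Of 13 other cathepsin inhibitor genes listed, 8 were tested. In Zeb2low CDPs against Zeb2hi CDPs 1 rose and 1 fell, where 4.5% of all genes rose and 10.3% fell. Cst7, encoding cystatin F, a cystatin of haematopoietic cells that is targeted to lysosomes and inhibits Ctsc there, had log2 signals of 7.52 and 7.50 in pre-CD8 DCs, 7.30, 8.44 and 8.73 in Zeb2low CDPs, and 9.75, 10.32 and 10.08 in Zeb2hi CDPs. It fell 3.71-fold in Zeb2low CDPs (-1.89 ± 0.34, adjusted p = 0.00989, 0.051 without Zeb2hi array 2) and 5.82-fold in pre-CD8 DCs (-2.54 ± 0.38, adjusted p = 0.00335), both against Zeb2hi CDPs, opposite in sign to Cst3. Ctla2a, whose product resembles a cathepsin propeptide, rose by 1.46 ± 0.38 in Zeb2low CDPs (adjusted p = 0.0344), passing in 3 of the 8 fits without 1 array. Cystatin B (Cstb), the cytosolic inhibitor, differed by -0.26 ± 0.17 in Zeb2low CDPs against Zeb2hi CDPs (adjusted p = 0.311).

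Of 5 other cathepsins 4 were tested, all but Ctsk, with median differences of -0.67 in Zeb2low CDPs against Zeb2hi CDPs, 0.70 between pre-CD8 DCs and Zeb2low CDPs and -0.19 in pre-CD8 DCs against Zeb2hi CDPs. Besides Ctsg, Ctso fell 2.16-fold in Zeb2low CDPs against Zeb2hi CDPs (-1.11 ± 0.19, adjusted p = 0.00904). Ctso averaged 5.87 in pre-CD8 DCs, 4.98 ± 0.32 in Zeb2low CDPs and 6.09 ± 0.21 in Zeb2hi CDPs. Its mean was lowest in Zeb2low CDPs, as were those of Ctsg, Ctsf, Ctsb, Ctss, Ctsz, Ctsd and Ctsh. For Ctsf, Ctsd and Ctsh the Zeb2low and Zeb2hi arrays overlapped. The share of all genes with their lowest mean in Zeb2low CDPs was not counted. The cathepsins of the mouse placenta were mostly dim, with 1 of 9 tested (Ctsll3) and no call.

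Among 6 other lysosomal peptidases, Tpp1, the tripeptidyl peptidase, fell in pre-CD8 DCs against Zeb2hi CDPs by 1.29 ± 0.30 (2.44-fold lower, adjusted p = 0.0202), lost with the replicate block (0.0711) and in 3 of the 8 fits without 1 array, those without pre-CD8 DC array 2 (0.106), Zeb2hi array 2 (0.0702) or Zeb2hi array 3 (0.0585). Legumain (Lgmn), which processes several cathepsin precursors, differed by -0.66 ± 0.33 in Zeb2low CDPs against Zeb2hi CDPs (adjusted p = 0.196). None of the 6 passed in Zeb2low CDPs against Zeb2hi CDPs or in pre-CD8 DCs against Zeb2low CDPs.

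Transcripts of the proteins that deliver and house the cathepsins were also measured. Of 9 tested sorting genes, 1 fell in Zeb2low CDPs against Zeb2hi CDPs, and 3 rose and 1 fell in pre-CD8 DCs against Zeb2hi CDPs. Over all genes 4.5% rose and 10.3% fell in the first comparison, and 6.51% rose and 11.1% fell in the second. Psap, the precursor of the saposins, rose 2.22-fold in pre-CD8 DCs (1.15 ± 0.28, adjusted p = 0.0246), passing in 3 of the 8 fits without 1 array. Of 13 membrane and proton pump genes, 2 rose and 2 fell in Zeb2low CDPs and 2 rose in pre-CD8 DCs, all against Zeb2hi CDPs. The tetraspanin gene Cd63 rose 4.53-fold in Zeb2low CDPs (2.18 ± 0.16, adjusted p = 0.000271) and 4.18-fold in pre-CD8 DCs (2.06 ± 0.18, adjusted p = 0.000301), with calls kept without any 1 array. The proton pump subunit gene Atp6v1a fell 2.15-fold in Zeb2low CDPs (-1.11 ± 0.23, adjusted p = 0.016), a call lost without Zeb2low array 3 (0.0526) or Zeb2hi array 2 (0.0701) or 3 (0.0589).

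Of 13 hydrolases that are not peptidases, 2 fell in Zeb2low CDPs against Zeb2hi CDPs, with beta-glucuronidase (Gusb) 2.58-fold lower (-1.37 ± 0.27, adjusted p = 0.0149, lost without Zeb2hi array 2 at 0.0694 or 3 at 0.0664), and 1 rose in pre-CD8 DCs against Zeb2hi CDPs, Man2b1 by 1.26 ± 0.26 (adjusted p = 0.0133, 0.0837 without pre-CD8 DC array 1). These counts are near the 10.3% of all genes that fell in the first comparison and the 6.51% that rose in the second. The call of Gnptg among the sorting genes (0.0561), of Lamp1 among the membrane genes (0.0603) and of Hexa among the hydrolases (0.0656), all lower in Zeb2low CDPs against Zeb2hi CDPs, ended with the replicate block, as did those of Igf2r (0.0725) and Gga3 (0.0838), higher, and Gnptab (0.0725), lower, in pre-CD8 DCs against Zeb2hi CDPs. Each of these 6 was also lost in 3 or more of the 8 fits without 1 array. In pre-CD8 DCs against Zeb2low CDPs none of the cathepsin, inhibitor, peptidase, sorting, membrane or hydrolase genes passed. Median differences there were 0.26 for the other peptidases, 0.38 for sorting, 0.42 for membrane and pump and 0.51 for hydrolases, with -0.33 for the other inhibitors, beside -0.03 over all genes.

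The MHC class II genes, whose products are loaded with peptides that cathepsins make, had larger differences. Of 9 tested, 6 rose in Zeb2low CDPs against Zeb2hi CDPs, 6 in pre-CD8 DCs against Zeb2low CDPs and 8 in pre-CD8 DCs against Zeb2hi CDPs. None fell. The shares of all genes that rose were 4.5%, 0.337% and 6.51% in the same order. Of the 6 between pre-CD8 DCs and Zeb2low CDPs, only H2-Eb1 and Ciita still passed with the replicate block or without pre-CD8 DC array 1, and Cd74, H2-Aa, H2-Ab1 and H2-Ob did not. Cd74, the invariant chain that Ctss and Ctsl degrade, averaged 12.46 ± 0.02 in pre-CD8 DCs, 10.25 ± 0.54 in Zeb2low CDPs and 5.38 ± 0.60 in Zeb2hi CDPs, 29.4-fold higher in Zeb2low CDPs than in Zeb2hi CDPs (adjusted p = 0.000209), while Ctss was 1.60-fold lower in the same comparison with no call.

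**Figure D4:**
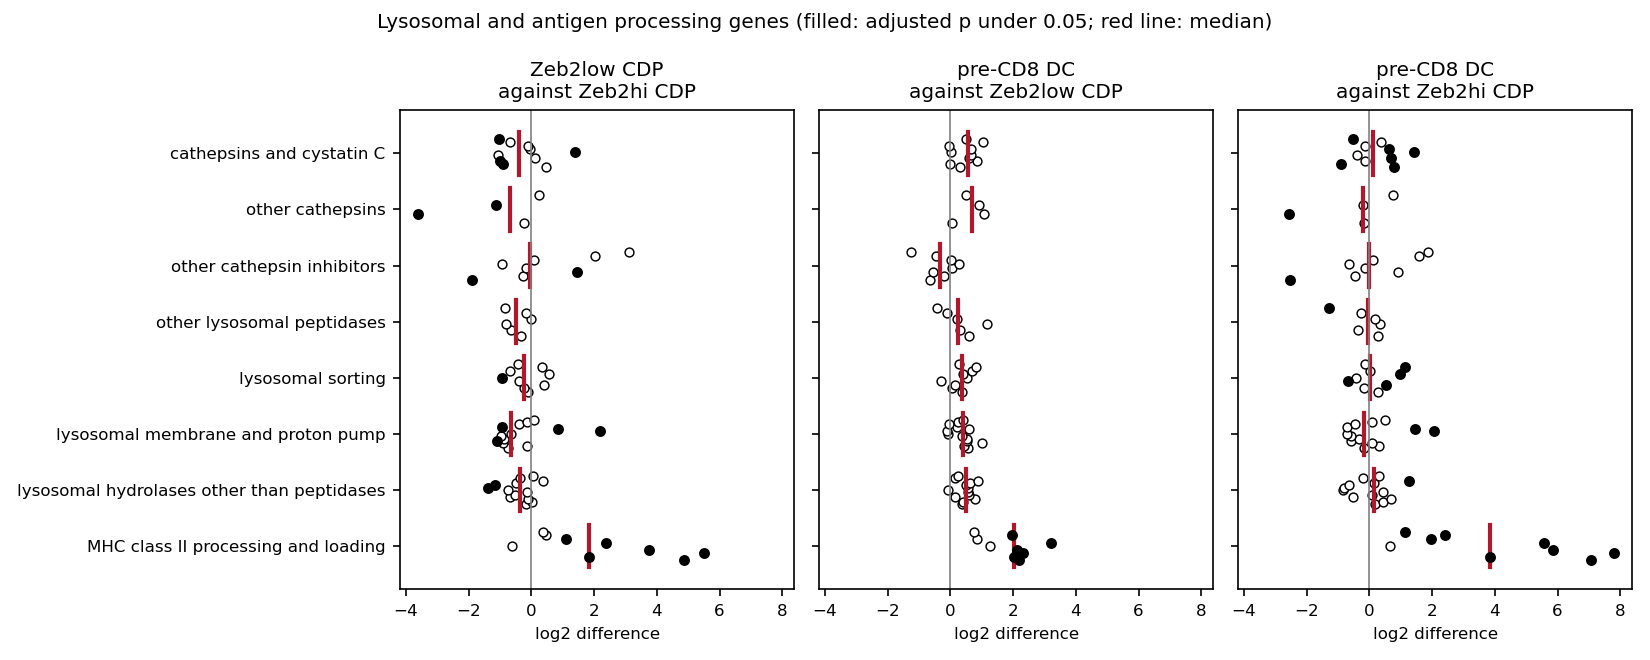
Log2 differences (horizontal axis) of the tested genes of 8 gene lists (rows) in the 3 comparisons; each point is a gene, filled where it passed the test, and red lines are list medians. The cathepsins and cystatin C lie on both sides of 0 in Zeb2low CDPs against Zeb2hi CDPs with a median of -0.39, and the MHC class II genes lie mostly to the right with medians of 1.83, 2.02 and 3.85 in the 3 comparisons.

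For the 7 genes that passed in at least 1 comparison, which is to be read beside 22.8% of all genes, the genes with the most similar signal over the 8 arrays were looked up by Pearson's r, given as a description since arrays of a group are alike. Ctsa was closest to As3mt (0.995), Kremen1 (0.99) and Tm9sf3 (0.988). Ctsb ran with Vgll4 (0.987), Idh3b (0.985) and Ctnnb1 (0.98), and Ctsz with Ilkap (0.982), Klhl6 (0.978) and Yipf5 (0.976). The genes nearest to Ctse were Ceacam1 (0.986), Gramd1b (0.981) and Ccl5 (0.98). For Cst3 they were Car15 (0.983), Degs1 (0.97) and Kdm7a (0.967), for Ctsc Sdccag8 (0.969), Adgre4 (0.962) and Jmjd1c (0.961), and for Ctsh Ptpn22 (0.972), D730003I15Rik (0.951) and Snord35b (0.949). No gene among the 10 was in the top 3 of another.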

How the data were processed

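Gene expression was measured on Affymetrix arrays of 8 samples in 3 groups named by the sample titles. The deposited values are linear intensity values per probe set. Per the submitters' processing notes, the authors made these deposited values with the RMA method and the software Affymetrix Expression Console, with versions not given in the sources used here. RNA was amplified from small amounts, per the labels' protocols. The number of arrays limits the precision.

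Of 28853 probe sets, 21789 have 1 annotated gene, 1621 have several and 5443 have none used here; 21698 matched RefSeq by gene ID. Values were log2 transformed and a gene was kept if above the array's own 40th percentile on at least 2 arrays, with the brightest probe set per gene, which left 13356 genes. All 8 arrays were fitted together (limma 3.58.1, R 4.3.3, lmFit and eBayes, 5 residual degrees of freedom, two-sided, Benjamini-Hochberg over all genes, threshold 0.05). Differences between groups were taken within a probe set, while percentile ranks and marker sums used the levels of different probe sets. The fit was also run on simulated data with known changes and noise independent between arrays. Results follow for Zeb2low CDPs against Zeb2hi CDPs, pre-CD8 DCs against Zeb2low CDPs and pre-CD8 DCs against Zeb2hi CDPs. Of 100 changes of 1 log2 unit, 60, 46 and 49 were recovered. Of 100 changes of 2 units, 94, 93 and 89 were, with 5, 12 and 7 false calls. Noise shared by arrays of the same number was not simulated.

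Members and gene lists were chosen with earlier results of these data known. Named were all members, up to 3 genes per direction of each list, and the 3 genes most like each called member. Deviations of same-numbered Zeb2low and Zeb2hi arrays from their group means correlated (0.478, 0.407 and 0.308 for numbers 1, 2 and 3), so a fit with the number as a block was run as well. The p-values printed come from the fit without this block, and blocked values stand beside the calls they change. The pairing rests on the values, as the labels do not say what a number marks.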

Additional observations from a re-analysis of the deposited data

How the results depend on the processing

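Results were recomputed under 17 alternatives for Zeb2low CDPs against Zeb2hi CDPs and 16 for the other comparisons, plus 2 added and chosen after seeing the data (Igf2r, dropped by a stricter filter, had 15): leaving out pre-CD8 DC replicate 1 with Zeb2low CDP replicate 2, and the neutrophil score as a covariate. Each gene had a single probe set, so another probe set gave no value. For Zeb2low CDPs against Zeb2hi CDPs, 1978 genes passed, 4467 with array weights, 4070 with the replicate block over the CDP arrays alone, 1552 with the replicate block over all arrays, 1157 with the covariate and 532 to 2222 without 1 array; of the 10 members 4 passed, 6 with array weights, 6 with the block over the CDP arrays, 3 with the block over all arrays and 1 to 5 without 1 array. For pre-CD8 DCs against Zeb2low CDPs, 74 genes passed, 16 with only those groups fitted, 15 with the block, 11 without the pair of arrays and 20 to 117 without 1 array; of the members 0 to 1 passed without 1 array. For pre-CD8 DCs against Zeb2hi CDPs, 2352 genes passed, 1180 without the pair of arrays, 864 with the covariate and 1173 to 2779 without 1 array; of the members 6 passed, 3 with arrays centred on their medians, 2 with the block, 2 without the pair of arrays, 1 with the covariate and 0 to 6 without 1 array. The cause of these shifts was not tested beyond fewer arrays being used.

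Centring moved the median of all genes by -0.16 in Zeb2low CDPs against Zeb2hi CDPs, and the share of higher calls was 30.4% as deposited, 40.9% after quantile normalization and 14.2% after centring; it was 60.8% and 72.3% after centring in pre-CD8 DCs against Zeb2low CDPs. No call reversed. Differences near 0 changed sign. In Zeb2low CDPs against Zeb2hi CDPs, Ctsh was 0.20 after quantile normalization and 0.07 with array weights (-0.133 to 0.034 without 1 array), Ctsc was -0.048 after centring (-0.005 to 0.232), and Ctsl was -0.254 to 0.039 without 1 array. In pre-CD8 DCs against Zeb2low CDPs, Ctse was -0.088 after quantile normalization, -0.21 with array weights, -0.38 without the pair and -0.08 with the covariate (-0.560 to 0.615 without 1 array), Ctsa was 0.072 after centring (-0.276 to 0.239), Ctsl was 0.052 after centring and 0.024 with the block (-0.854 to 0.777), and Ctsd was -0.31 without the pair (-0.840 to 2.145). In pre-CD8 DCs against Zeb2hi CDPs, Ctss was -0.07 without the pair (-0.070 to 0.820 without 1 array), Ctsb was -0.386 to 0.089, Ctsd -1.892 to 1.093 and Ctsl -0.966 to 0.665 without 1 array. Between Zeb2low CDPs and Zeb2hi CDPs, Cst3 passed after quantile normalization (0.70, adjusted p = 0.0234), with array weights and with the CDP block, and Ctss in 6 of 17 alternatives. The replicate block over all arrays ended the member calls for which the report gives its value and no other.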
